A study of Homo sapiens with 6 samples.

Results

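The genes described are those for subunits, activators and assembly factors of the proteasome, measured by polyA RNA sequencing in 2 groups of 3 libraries each. MDA-MB-231GlnIND (GlnIND) is a derivative of the human triple-negative breast cancer line MDA-MB-231 that had been kept for over 6 weeks in glutamine-free RPMI 1640 with dialysed fetal bovine serum. The parental MDA-MB-231 cells grew in glutamine-replete RPMI 1640 with fetal bovine serum that was not dialysed. The population of cells, the glutamine supply and the serum therefore differed together, and their parts cannot be told apart. Both groups descend from 1 established line, and separate cultures are not stated. The p-values thus describe the spread among these 6 libraries, some or all of which may be technical. Members were the rows of the deposited count tables whose symbol is PSM, a letter from A to G and a number, leaving out PSMB8 and PSMB9. This gave 46 of 28265 genes, 17 of them for the core particle, 17 for the regulatory particle, 5 for activators and an inhibitor, and 7 for assembly chaperones.

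The proteasome is the main protease of the cytosol and nucleus and degrades proteins tagged with ubiquitin. Its barrel-shaped core particle is built from rings of alpha subunits, which form the gate, and rings of beta subunits, some of which carry the proteolytic sites. The regulatory particle binds and unfolds the substrate, with a base that holds the ring of ATPases and a lid that holds the deubiquitinase PSMD14. In mammalian cells the transcription factor NFE2L1 raises proteasome genes together when proteasome activity is limiting.

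Total counts were 21276815 to 24594248 in GlnIND libraries and 18256219 to 21741371 in parental libraries. Of the markers of the line, CD44, MSN and CAV1 were at 358.2 to 1244 CPM (read counts scaled to library size with TMM composition factors). VIM, the mesenchymal intermediate filament, was at 3818 to 6143 CPM, and ESR1, PGR and CDH1 were at most at 0.458 CPM. In GlnIND cells VIM was called higher (edgeR log2 fold change 0.61), CD44 and CAV1 were called lower (-0.30 and -0.50), and MSN was not called. ERBB2 was detected at 61.8 to 65.2 CPM in GlnIND and 31.5 to 41.4 CPM in parental libraries, and EPCAM at 1.88 to 2.61 and 12 to 17.2 CPM (edgeR log2 fold changes 0.82 and -2.68). Of the markers of other cell types, PTPRC, CD3E, CDH5 and DCN were at most at 0.248 CPM. CD68 was at 157.8 to 201.2 CPM and not called. COL1A1, PDGFRB and PECAM1 were called higher in GlnIND cells at low levels. COL1A1 had 11.5 to 13.1 CPM in GlnIND and 3.78 to 5.72 CPM in parental libraries (log2 fold change 1.29, edgeR adjusted p = 0.00014). PDGFRB had 2.91 to 3.34 CPM in GlnIND and 0.915 to 1.3 CPM in parental libraries (log2 fold change 1.52, edgeR adjusted p = 0.000407). PECAM1 had 3.87 to 4.71 CPM in GlnIND and 2.34 to 2.48 CPM in parental libraries (log2 fold change 0.85, edgeR adjusted p = 0.00254). The part of these markers in the results was not tested.

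Proteasome genes differed little between GlnIND and parental cells and did not move as a block. Of the 46 members 44 passed the filter on low counts. With edgeR's quasi-likelihood test and a Benjamini-Hochberg adjusted p under 0.05 over all genes, 8 members rose and 14 fell in GlnIND cells, and 22 were not called. In bulk RNA, fewer cells of a kind and less RNA per cell cannot be told apart. The 22 called members are 50% of those tested, against 56.3% of the 13949 genes tested, of which 28.4% were higher and 27.9% lower. No member differed by more than 2-fold, whereas 15.1% of all genes tested were called and did so. The largest changes were decreases in PSMC3, an ATPase of the base (1.65-fold lower), PSME2, a subunit of the activator PA28 (1.51-fold lower), PSMG1, a chaperone of core assembly (1.47-fold lower), and PSMC2, a further ATPase (1.40-fold lower). The largest increase was in PSMD2, the scaffold subunit of the base, which was 1.25-fold higher.

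The log2 fold changes of the tested members ran from -0.72 to 0.33 with a median of -0.14, against a median of 0.03 over all genes tested. The direction of that median depended on the scaling. RLE factors gave -0.16, upper-quartile factors -0.05 and library totals alone 0.01. These scalings moved the median of all genes to 0.02, 0.12 and 0.18, so that the members stood at -0.17 relative to all genes under each of them. At 30 members the CPM ranges were apart between groups, 10 of them above and 20 below in GlnIND libraries. This was 68.2% of tested members, against 65% of all genes tested. The split of calls rested on the scaling and on single libraries. With library totals alone 16 members rose and 6 fell. Without GlnIND 1, 1 member rose and 14 fell, and without GlnIND 2, 2 rose and 10 fell. Without parental 1, 10 rose and 25 fell, and without parental 2, 3 rose and 13 fell.

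By part, 5 of 15 tested core genes were called (33.3%), 11 of 17 regulatory genes (64.7%), 3 of 5 genes for activators and inhibitor (60%) and 3 of 7 assembly genes (42.9%), beside 56.3% of all genes tested. Differences between these shares were not tested.

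**Figure D1:**
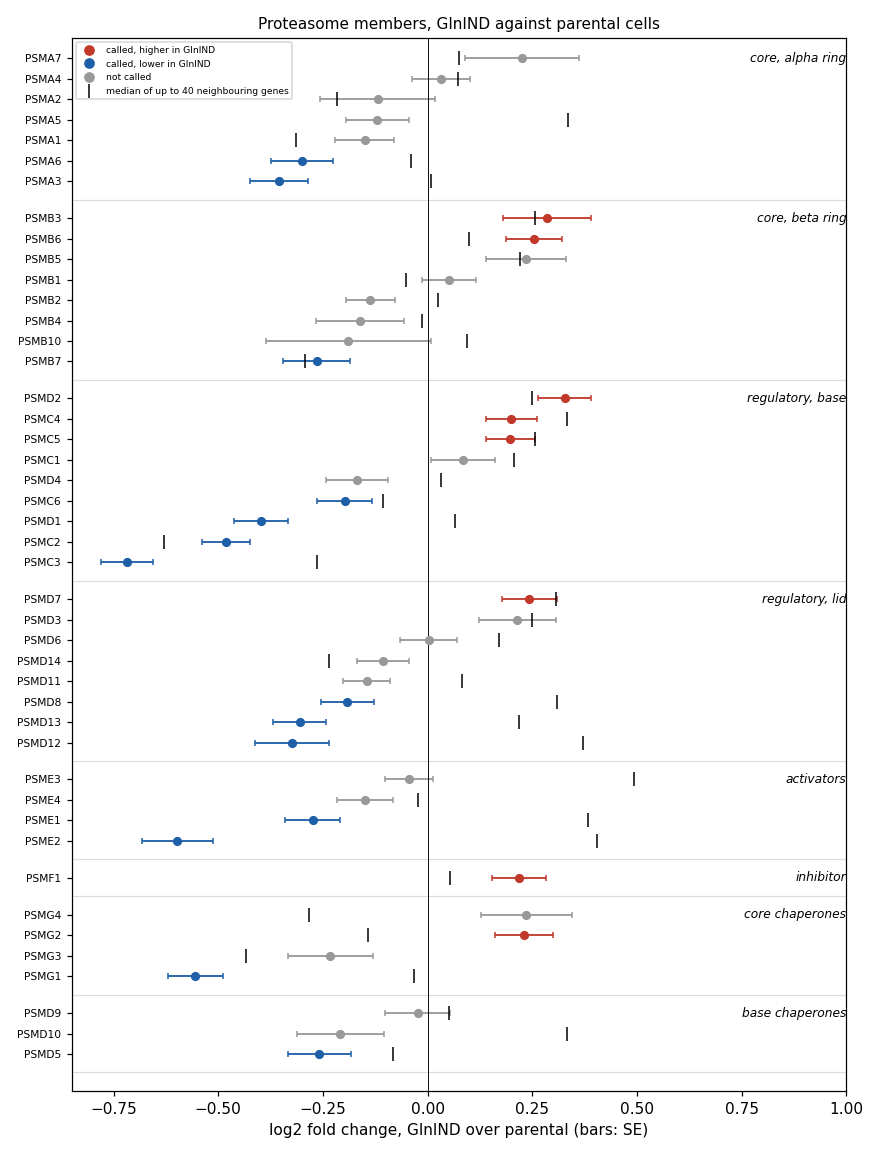
Each point is the log2 fold change of a tested member, GlnIND over parental, with its SE (3 libraries per group), grouped by role, and the black ticks give the median log2 fold change of its neighbouring genes. Called members lie on both sides of 0 in the beta ring, the base, the lid and the core chaperones.

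The 3 parental libraries varied more than the 3 GlnIND libraries. The coefficient of variation had a median over members of 3.78% in GlnIND and 6.13% in parental libraries. Parental 1 stood furthest from its group, with a median absolute deviation of 0.14 on the log2 scale from the mean of the other 2 libraries, against 0.06 for parental 2 and 0.09 for parental 3. It was the lowest parental library at 29 members and the highest at 10. Its deviation correlated with the GC content of the transcripts across the 44 members (Pearson r = -0.41), a description of points that share 1 library.

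**Figure D2:**
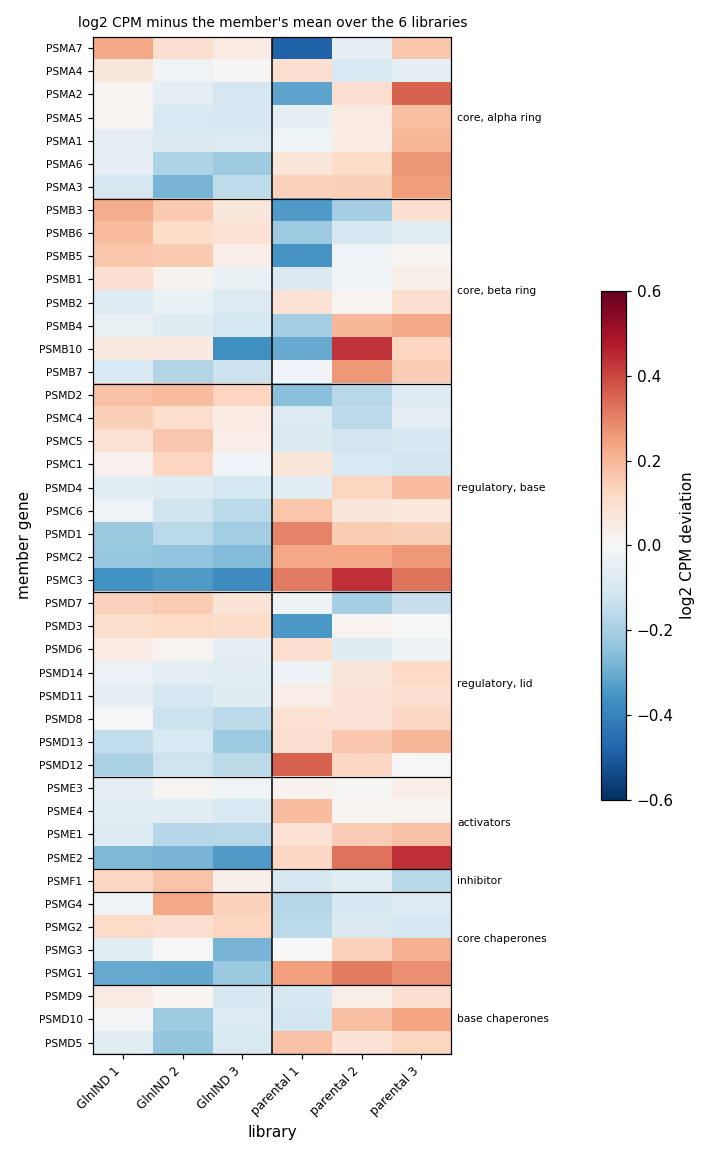
Colour gives log2 CPM minus the member's own mean over the 6 libraries, with rows ordered by role and by log2 fold change within a role. PSMA7, PSMA2, PSMB3, PSMB5 and PSMD3 have their lowest value in parental 1, whereas PSMC3, PSMC2 and PSMG1 separate the groups in every library.

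PSMA3, PSMC3, PSMD1, PSME2 and PSMG1 were called lower in GlnIND cells under each of the 14 alternative settings, whereas none of the 8 increases was. The share of all genes tested that kept a call under all 14 is not given here. Whether these members differ from other genes in this was not tested. For PSMA3, PSMC3, PSME2 and PSMG1, and for PSME1, the partner of PSME2, the 250 bases before the RefSeq start site are shown. They are taken from RefSeq's promoter table, build GRCh38.p14. The PSMD1 window held no match to the motifs searched and is not printed. Capitals mark matches, on either strand, to TGACNNNGC (core of the antioxidant response element, bound by NFE2L1 and NFE2L2), CCAAT (the box bound by NF-Y), TGATGNAA (core of the response element bound by ATF4) and the core of the interferon-stimulated response element (ISRE).
PSMA3 (chr14:58244593-58244842, plus strand): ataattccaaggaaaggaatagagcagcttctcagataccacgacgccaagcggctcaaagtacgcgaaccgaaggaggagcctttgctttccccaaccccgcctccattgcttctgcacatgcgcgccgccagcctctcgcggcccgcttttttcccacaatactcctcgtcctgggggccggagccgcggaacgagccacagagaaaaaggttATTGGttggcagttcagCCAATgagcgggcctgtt
PSMC3 (chr11:47426440-47426689, minus strand): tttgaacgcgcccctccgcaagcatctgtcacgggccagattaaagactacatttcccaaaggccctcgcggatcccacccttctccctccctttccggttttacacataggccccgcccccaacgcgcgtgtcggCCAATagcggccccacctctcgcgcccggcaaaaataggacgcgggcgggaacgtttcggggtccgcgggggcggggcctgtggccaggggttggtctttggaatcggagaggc
PSMG1 (chr21:39183452-39183701, minus strand): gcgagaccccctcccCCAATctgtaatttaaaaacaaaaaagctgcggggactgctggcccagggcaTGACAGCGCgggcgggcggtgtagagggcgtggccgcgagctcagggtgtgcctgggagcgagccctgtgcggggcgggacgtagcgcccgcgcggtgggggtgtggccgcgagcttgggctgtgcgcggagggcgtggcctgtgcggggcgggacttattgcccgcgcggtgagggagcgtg
PSME1 (chr14:24135944-24136193, plus strand): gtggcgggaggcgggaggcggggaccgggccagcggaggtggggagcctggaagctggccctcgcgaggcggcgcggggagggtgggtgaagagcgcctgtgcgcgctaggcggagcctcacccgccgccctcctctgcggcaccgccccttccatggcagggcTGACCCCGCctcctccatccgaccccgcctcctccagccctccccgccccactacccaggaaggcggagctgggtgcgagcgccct
PSME2 (chr14:24146611-24146860, minus strand): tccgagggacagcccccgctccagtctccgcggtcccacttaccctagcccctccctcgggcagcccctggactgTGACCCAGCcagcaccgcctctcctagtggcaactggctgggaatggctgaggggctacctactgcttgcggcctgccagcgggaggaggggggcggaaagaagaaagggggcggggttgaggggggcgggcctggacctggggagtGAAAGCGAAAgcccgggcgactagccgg

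PSMA3 had CCAAT once on each strand within 35 bases of its start, and PSMC3 and PSMG1 each had it once. PSMG1, PSME1 and PSME2 each had 1 match to TGACNNNGC, and PSME2 had the ISRE core from 28 to 19 bases before its start. PSMA7, PSMB1, PSMB6, PSMB7, PSMD4 and PSMG3 have no entry in the table used here. Over the 40 members with one, TGACNNNGC was present before 12 genes (30%), against 13.2% of all 27305 genes in the table. It was present in 3 of 7 members that rose and in 5 of 13 that fell. CCAAT was present at 18 members (45%), against 37% of all genes, and the ISRE core at 5 members (12.5%), against 3.71%. TGATGNAA was present at 0 of the 40 members, against 3.89% of all genes. A gene counted when any of its listed start sites matched, and for TGACNNNGC PSMA4 and PSMC5 matched only at a later listed site. The comparison genes were all in the table, expressed or not, and were not matched for GC content or number of start sites. Whether the shares differ was not tested. A match describes the letters in this window and is no evidence of binding.

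In the alpha ring of the core, 2 of 7 tested genes fell and none rose (28.6% called, beside 56.3% of all genes tested). PSMA3 had 173.4, 153.6 and 167.4 CPM in GlnIND libraries, against 204.9, 205.4 and 221.8 CPM in parental libraries. The groups did not overlap, and the log2 fold change was -0.35 with SE 0.069 (adjusted p = 0.00171, edgeR). PSMA6 had 247.9, 225.8 and 221.7 CPM in GlnIND libraries and 270.5, 277 and 308.2 CPM in parental libraries, giving a log2 fold change of -0.30 with SE 0.074 (adjusted p = 0.00651, edgeR). Its ranges were also apart, but with library totals alone it stood at -0.15 (adjusted p = 0.119).

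PSMA7 averaged 319 ± 21 CPM in GlnIND and 273 ± 59.4 CPM in parental cells (SD, n = 3 each) and was not called (edgeR adjusted p = 0.185). Parental 1, at 209.1 CPM, lay far below parental 2 and 3, at 282.2 and 326.8 CPM, and parental 3 was above 2 of the 3 GlnIND libraries. PSMA2 showed the same spread, with 136.6, 182.4 and 217.2 CPM in parental 1, 2 and 3, beside 158.5 to 171.3 CPM in GlnIND libraries. PSMA1, PSMA4 and PSMA5 were not called either, with log2 fold changes of -0.15, 0.03 and -0.12. Without parental 1, PSMA1, PSMA2 and PSMA5 passed the test as lower, at -0.21, -0.29 and -0.18. PSMA8, a testis-specific alpha subunit, had 0 counts in every library, which allows at most 0.23 to 0.343 CPM in a single library (6 counts, since most low counts were even and may come as read pairs, counting error only).

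In the beta ring 2 of 8 tested genes rose and 1 fell (37.5% called, beside 56.3% of all genes tested). The catalytic subunits went both ways. PSMB6, which carries the caspase-like site, had 143.4, 135.6 and 133.5 CPM in GlnIND libraries, against 108.1, 117.7 and 120 CPM in parental libraries. Each GlnIND library was above each parental one, and the log2 fold change was 0.25 with SE 0.068 (adjusted p = 0.00953, edgeR). PSMB7, which carries the trypsin-like site, had 99.1, 93.34 and 96.57 CPM in GlnIND libraries and 104.3, 126.2 and 116.9 CPM in parental libraries. It fell by 0.26 on the log2 scale, with SE 0.08 (adjusted p = 0.0172, edgeR), with ranges apart, and 8 of the 14 alternatives kept the call. Leaving out GlnIND 2, GlnIND 3 or parental 2 ended it (adjusted p up to 0.0698), as did library totals alone (-0.11), and with the neighbours' shift removed PSMB7 stood at 0.03. PSMB6 lost its call without GlnIND 1 (adjusted p = 0.0617) and with the neighbours' shift removed (0.16, adjusted p = 0.0834). PSMB5, which carries the chymotrypsin-like site and is the main target of bortezomib, had 186.3, 184.9 and 170.9 CPM in GlnIND libraries and 129.8, 163.1 and 167.9 CPM in parental libraries. Its ranges were apart as well, but the log2 fold change of 0.23 did not pass (SE 0.096, edgeR adjusted p = 0.0617). With the neighbours' shift removed PSMB5 stood at 0.01 (edgeR adjusted p = 0.92).

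A ratio of 2 genes within a library does not depend on the scaling. PSMB7 over PSMB6 averaged 0.701 ± 0.0197 in GlnIND and 1.00 ± 0.0595 in parental libraries (SD, n = 3 each), with no overlap. PSMB7 over PSMB5 averaged 0.534 ± 0.0302 in GlnIND and 0.758 ± 0.0554 in parental libraries (SD, n = 3 each), again with no overlap. These and the ratios that follow were chosen after the values had been seen and are given without a test.

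PSMB3, a structural beta subunit, was called by a narrow margin. It had 162.6, 156 and 146.9 CPM in GlnIND libraries, against 110.5, 121.4 and 150.2 CPM in parental libraries, so the ranges overlapped. Its log2 fold change was 0.28 with SE 0.11 (adjusted p = 0.0422, edgeR), and 7 of the 14 alternatives kept the call. Leaving out any GlnIND library or parental 2 ended it (adjusted p up to 0.158). With the neighbours' shift removed PSMB3 stood at 0.03 (edgeR adjusted p = 0.844), and with the GC trend removed at 0.21 (edgeR adjusted p = 0.054). PSMB1, PSMB2 and PSMB4 were not called, at 0.05, -0.14 and -0.16. The inducible subunit PSMB10, which replaces PSMB7 in the immunoproteasome, was low in both groups. It averaged 9 ± 1.45 CPM in GlnIND and 10.3 ± 2.56 CPM in parental cells (SD, n = 3 each, edgeR adjusted p = 0.437). Per kilobase of transcript this was 7.39 CPM in GlnIND and 8.44 CPM in parental cells, beside 98.3 and 118 CPM per kilobase for PSMB7. PSMB11, the thymus-specific subunit, had 2 counts in GlnIND 3 and 0 in the other 5 libraries and was not tested.

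The base of the regulatory particle held the largest changes in both directions. Of its 9 genes 3 rose, 4 fell and 2 were not called (77.8% called, beside 56.3% of all genes tested). The ATPases PSMC1 to PSMC6 form a single ring with 1 copy of each. Of these 6, 2 rose and 3 fell (83.3% called). With the neighbours' shift removed PSMC3 alone of them was called. PSMC3 had 199.9, 202.8 and 197.9 CPM in GlnIND libraries, against 319, 348.2 and 321 CPM in parental libraries. No other member fell as far, with a log2 fold change of -0.72 with SE 0.061 (adjusted p = 1.11e-05, edgeR). PSMC2 had 121.6, 121 and 118.9 CPM in GlnIND libraries and 167, 167.1 and 170.7 CPM in parental libraries, giving a log2 fold change of -0.48 with SE 0.057 (adjusted p = 8.5e-05, edgeR). PSMC6 fell by 0.20 on the log2 scale, with SE 0.065 (adjusted p = 0.0259, edgeR), with 192.6 to 212.6 CPM in GlnIND and 224.9 to 241.4 CPM in parental libraries. Its call was kept by 8 of the 14 alternatives and lost without GlnIND 2 or GlnIND 3 (adjusted p up to 0.0972), and with the GC trend removed it stood at 0.12.

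PSMC4 had 263.7, 257.3 and 247.1 CPM in GlnIND libraries, against 225.3, 214 and 229.3 CPM in parental libraries. PSMC5 had 354.2, 372 and 341.9 CPM in GlnIND libraries and 313, 307.4 and 311 CPM in parental libraries. Both rose by 0.20 on the log2 scale (SE 0.061 and 0.059, edgeR adjusted p = 0.0182 and 0.0173), with ranges apart. Their calls were kept by 8 and 7 of the 14 alternatives. Both were lost without GlnIND 1, GlnIND 2 or parental 2, and PSMC5 also without parental 3 (adjusted p up to 0.119 for PSMC4 and 0.107 for PSMC5). PSMC1 was not called, at 0.08. The ratio of PSMC3 to PSMC5 within a library averaged 0.563 ± 0.0168 in GlnIND and 1.06 ± 0.0623 in parental cells (SD, n = 3 each).

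Among the other subunits of the base, PSMD2 and PSMD1, the paired large scaffolds, went opposite ways. PSMD2 had 1085, 1096 and 1053 CPM in GlnIND libraries and 809.7, 858.4 and 910.3 CPM in parental libraries, giving a log2 fold change of 0.33 with SE 0.064 (adjusted p = 0.00175, edgeR). PSMD1 had 229.8, 239.6 and 231.9 CPM in GlnIND libraries, against 329.9, 297.6 and 296.4 CPM in parental libraries, giving a log2 fold change of -0.40 with SE 0.065 (adjusted p = 0.000602, edgeR). Neither gene's ranges overlapped. PSMD2 lay in a window at 0.25, and with the neighbours' shift removed it stood at 0.08 (edgeR adjusted p = 0.343). PSMD2 had the highest CPM of all members, in part through its length. Per kilobase it was at 313 CPM in GlnIND and 249 CPM in parental cells, close to PSMB1 at 301 and 290 CPM per kilobase. Lengths are those of the longest principal transcript in GENCODE release 29, and which transcript these cells used was not measured. PSMD4, a ubiquitin receptor, was not called (log2 fold change -0.17, edgeR adjusted p = 0.0787).

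**Figure D3:**
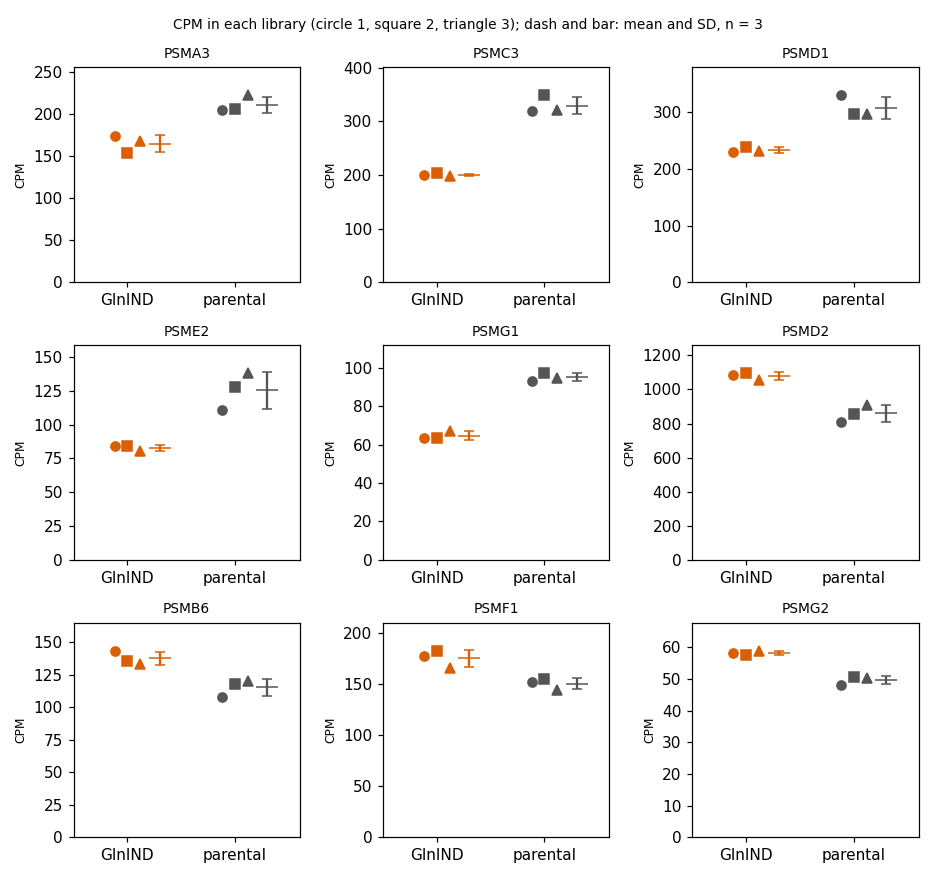
CPM in each of the 3 GlnIND and 3 parental libraries, with the mean and SD beside the points, for the 5 members called lower under every alternative and for 4 members that rose. PSMC3 sits at 197.9 to 202.8 CPM in GlnIND and at 319 to 348.2 CPM in parental libraries.

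Of the 8 lid genes 1 rose, 3 fell and 4 were not called (50% called, beside 56.3% of all genes tested). PSMD7, the partner of the deubiquitinase, had 233.9, 235.9 and 224.3 CPM in GlnIND libraries, against 208.4, 184.9 and 193.2 CPM in parental libraries. It rose by 0.24 on the log2 scale, with SE 0.066 (adjusted p = 0.0104, edgeR). The call was lost without GlnIND 1, GlnIND 2 or parental 2 (adjusted p up to 0.0823). In a window at 0.31, PSMD7 stood at -0.06 with the neighbours' shift removed (edgeR adjusted p = 0.455). PSMD12 had 273.4, 286.5 and 279.5 CPM in GlnIND libraries and 399.4, 339.7 and 311.3 CPM in parental libraries, with parental 1 the highest. It fell by 0.32 on the log2 scale, with SE 0.088 (adjusted p = 0.0109, edgeR), and with the GC trend removed it stood at -0.05 (adjusted p = 0.47). PSMD13 had 205.7, 214.4 and 195.9 CPM in GlnIND libraries, against 244.2, 255.4 and 262 CPM in parental libraries, and fell by 0.31 (SE 0.063, edgeR adjusted p = 0.00239). With library totals alone neither PSMD12 (-0.17, edgeR adjusted p = 0.0963) nor PSMD13 (-0.15, edgeR adjusted p = 0.0639) was called.

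PSMD8 had 220, 201.8 and 197.7 CPM in GlnIND libraries and 234.7, 232.4 and 240.3 CPM in parental libraries, and fell by 0.19 (SE 0.064, edgeR adjusted p = 0.027). With 9 of the 14 alternatives keeping it, this call was lost without GlnIND 2 or GlnIND 3 (adjusted p up to 0.102), and library totals alone gave -0.04 (adjusted p = 0.606). The deubiquitinase PSMD14 averaged 176 ± 2.15 CPM in GlnIND and 189 ± 9.81 CPM in parental cells (SD, n = 3 each, edgeR adjusted p = 0.168). PSMD3, PSMD6 and PSMD11 were not called, with log2 fold changes of 0.21, 0.00 and -0.15. PSMD11, which limits proteasome assembly in human embryonic stem cells, missed the threshold narrowly, at an edgeR adjusted p of 0.0506, and had no overlap between groups. It passed under 5 of the 14 alternatives.

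The PA28 activators PSME1 and PSME2, which form one ring together and are induced by interferon gamma, both fell. PSME2 had 84.39, 83.98 and 80.37 CPM in GlnIND libraries, against 110.9, 127.6 and 138.1 CPM in parental libraries, giving a log2 fold change of -0.60 with SE 0.085 (adjusted p = 0.000261, edgeR). PSME1 had 91.92, 85.98 and 86.32 CPM in GlnIND libraries and 102.9, 107.3 and 109.5 CPM in parental libraries, giving a log2 fold change of -0.28 with SE 0.065 (adjusted p = 0.00518, edgeR). Neither overlapped between groups. PSME1 over PSME2 averaged 1.06 ± 0.0343 in GlnIND and 0.854 ± 0.0681 in parental libraries (SD, n = 3 each). The summed CPM of the pair was 171 ± 4.9 in GlnIND and 232 ± 17 in parental cells (SD, n = 3 each). This sum was lower in every GlnIND library with library totals alone as well, at 180 ± 4.21 and 220 ± 19.9. With that scaling PSME1 by itself stood at -0.12 and was not called (edgeR adjusted p = 0.137). PSME2 then stood at -0.45 (edgeR adjusted p = 0.00236).

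PSME3, the nuclear activator PA28gamma, averaged 416 ± 11.1 CPM in GlnIND and 428 ± 5.19 CPM in parental cells (SD, n = 3 each, edgeR adjusted p = 0.53). With the neighbours' shift removed PSME3 stood at -0.54 (edgeR adjusted p = 5.9e-05). PSME4, the activator PA200, averaged 224 ± 2.48 CPM in GlnIND and 249 ± 17.3 CPM in parental cells (SD, n = 3 each, edgeR adjusted p = 0.0809). PSMF1, which inhibits the core particle in vitro, was the member of this class that rose. It had 176.7, 182.4 and 165.4 CPM in GlnIND libraries, against 151.4, 155.1 and 144.2 CPM in parental libraries, giving a log2 fold change of 0.22 with SE 0.065 (adjusted p = 0.0165, edgeR), and 10 of the 14 alternatives kept the call. It was lost without GlnIND 1, GlnIND 2 or parental 3 (adjusted p up to 0.0962). The same held with the neighbours' shift removed (0.17, edgeR adjusted p = 0.0584).

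Of the 4 core assembly chaperones 1 fell and 1 rose (50% called, beside 56.3% of all genes tested). PSMG1 and PSMG2 work as a dimer that starts the alpha ring. PSMG1 had 63.63, 63.46 and 67.32 CPM in GlnIND libraries and 93.24, 97.42 and 94.97 CPM in parental libraries, giving a log2 fold change of -0.55 with SE 0.066 (adjusted p = 8.45e-05, edgeR). PSMG2 had 58.29, 57.68 and 58.95 CPM in GlnIND libraries, against 48.16, 50.74 and 50.22 CPM in parental libraries, giving a log2 fold change of 0.23 with SE 0.07 (adjusted p = 0.0177, edgeR). The ranges were apart for both partners, in opposite directions. The call of PSMG2 was kept by 8 of the 14 alternatives and was lost on leaving out any library but parental 1 (adjusted p up to 0.0789). Their ratio averaged 1.11 ± 0.0269 in GlnIND and 1.92 ± 0.0227 in parental libraries (SD, n = 3 each).

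PSMG3 and PSMG4 form the second dimer. PSMG3 had 31.34, 32.83 and 27.1 CPM in GlnIND libraries and 32.93, 36.15 and 38.1 CPM in parental libraries (log2 fold change -0.23, SE 0.1, edgeR adjusted p = 0.0765). PSMG4 had 15.11, 17.94 and 16.89 CPM in GlnIND libraries and 13.59, 14.36 and 14.5 CPM in parental libraries (log2 fold change 0.24, SE 0.11, edgeR adjusted p = 0.0913). Neither was called, although the ranges were apart for each. Their ratio averaged 1.84 ± 0.235 in GlnIND and 2.52 ± 0.102 in parental libraries (SD, n = 3 each).

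**Figure D4:**
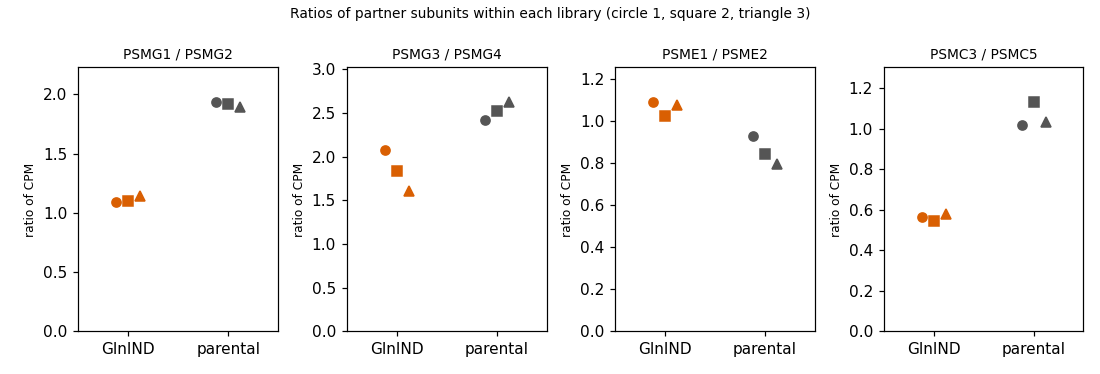
Ratio of CPM of 2 members within each of the 3 GlnIND and 3 parental libraries. PSMG1 over PSMG2 lies between 1.09 and 1.14 in GlnIND and between 1.89 and 1.94 in parental libraries, and the other 3 ratios also show no overlap.

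Of the 3 chaperones of the base, PSMD5 alone was called and fell (33.3%, beside 56.3% of all genes tested). PSMD5 had 69.82, 61.8 and 68.47 CPM in GlnIND libraries, against 82.33, 77.22 and 79.74 CPM in parental libraries, giving a log2 fold change of -0.26 with SE 0.074 (adjusted p = 0.014, edgeR). The groups were apart, and 9 of the 14 alternatives kept the call, which was lost without GlnIND 2 (adjusted p = 0.0651). The call was also lost with library totals alone (-0.10, adjusted p = 0.233) and with the GC trend removed (-0.12, adjusted p = 0.145). With the neighbours' shift removed PSMD5 stood at -0.18 (edgeR adjusted p = 0.0763). PSMD10, the oncoprotein gankyrin, averaged 52.9 ± 3.81 CPM in GlnIND and 61.1 ± 7.66 CPM in parental cells (SD, n = 3 each, edgeR adjusted p = 0.113). PSMD9 averaged 81.1 ± 4.2 CPM in GlnIND and 82.5 ± 5.59 CPM in parental cells (SD, n = 3 each, edgeR adjusted p = 0.809).

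Summed over its genes, the core particle stood at 2799 ± 103 CPM in GlnIND and 2885 ± 254 CPM in parental libraries, and the regulatory particle at 4509 ± 93.1 and 4630 ± 33.6 CPM (SD, n = 3 each). The core sum overlapped between groups. The regulatory sum was lower in each GlnIND library, but with library totals alone it was higher in each, at 4752 ± 79.7 and 4389 ± 101 CPM. PSMD2 carried much of this sum. Without it the regulatory sum was 3431 ± 70.8 CPM in GlnIND and 3771 ± 29.3 CPM in parental libraries, and with library totals alone 3616 ± 59.9 and 3574 ± 40.3 CPM, which overlapped. The ratio of core to regulatory sums, which the scaling leaves alone, averaged 0.621 ± 0.0178 in GlnIND and 0.623 ± 0.0512 in parental libraries (SD, n = 3 each) and overlapped. Leaving PSMD2 out of the regulatory sum gave 0.816 ± 0.0226 in GlnIND and 0.766 ± 0.0719 in parental libraries, which overlapped as well. Assembly chaperones over core averaged 0.133 ± 0.00288 in GlnIND and 0.145 ± 0.00712 in parental libraries (SD, n = 3 each), with no overlap.

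Members lie on 17 chromosomes, and some sit among neighbours that shifted with them. For each member the median log2 fold change of up to 40 neighbouring tested genes was taken, members left out. It ranged from -0.63 around PSMC2 to 0.49 around PSME3. Across the 44 members, the log2 fold change and that median had a Pearson r of 0.26, a description in which members share libraries and some share windows. With the neighbours' shift removed, 2 members rose and 16 fell. PSMC2 then stood at 0.15 (adjusted p = 0.056) and PSMC4 and PSMC5 at -0.13 and -0.06 (adjusted p = 0.0984 and 0.439). PSMC3, in a window at -0.27, still fell, by 0.45 (adjusted p = 0.000267). PSME1 and PSME2 fell although their neighbours had medians of 0.38 and 0.40. Of the members not called in the main fit, 7 passed with the shift removed. They were PSMA5 (-0.45), PSMB2 (-0.16), PSMD4 (-0.20), PSMD10 (-0.54), PSMD11 (-0.23), PSME3 (-0.54) and PSMG4 (0.52), with edgeR adjusted p up to 0.0489. The error of the shift itself is not in these p-values, and whether copy number changed was not tested.

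**Figure D5:**
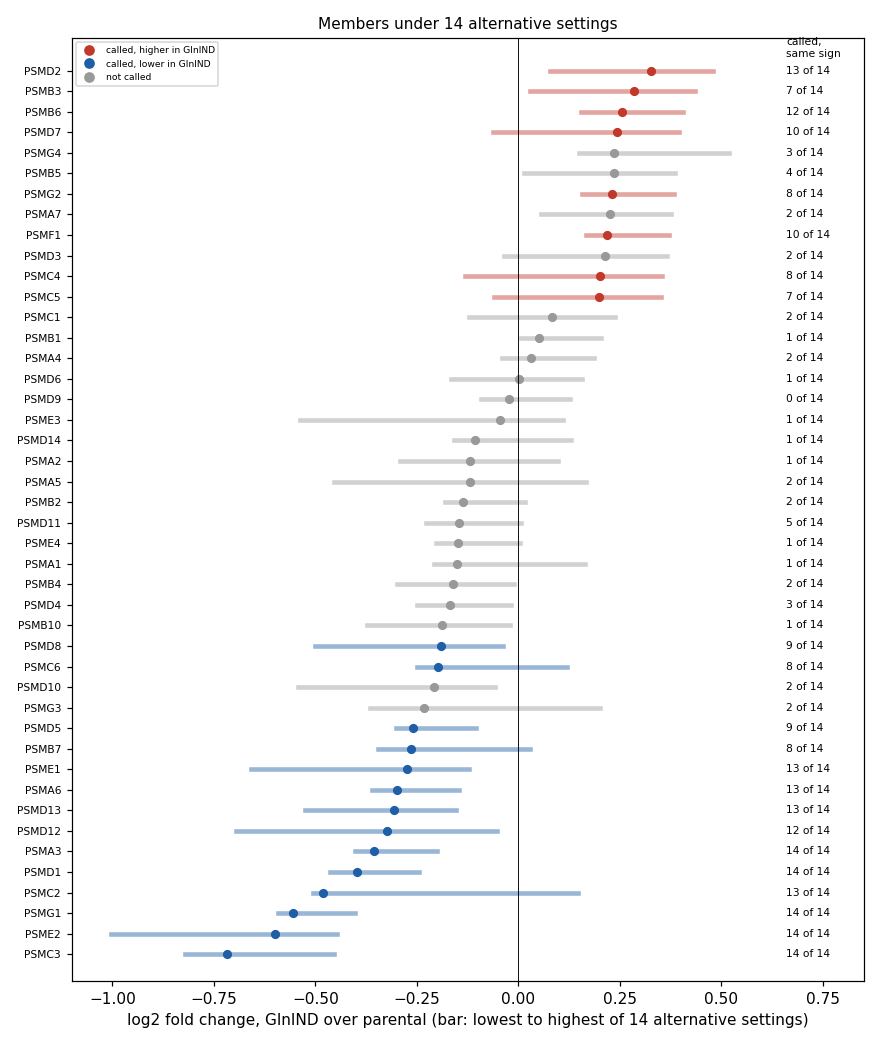
Points give the log2 fold change of each tested member, bars its lowest to highest value over 14 alternative settings, and the right column how many of them call the member in the same direction. PSMA3, PSMC3, PSMD1, PSME2 and PSMG1 are called in 14 of 14, and PSMD2 in 13 of 14.

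Other genes of the pathway were examined in 5 lists. Of 12 proteasome genes without a PSM symbol, 7 fell and none rose, with a median log2 fold change of -0.33. The 58.3% called were all lower, beside 27.9% lower and 28.4% higher among all genes tested (56.3% called in either direction). Some of the 7 lay among neighbours that also fell, and the difference between these shares was not tested. TXNL1, a thioredoxin bound to the regulatory particle, had 43.9 ± 0.369 CPM in GlnIND and 93.6 ± 9.78 CPM in parental cells (SD, n = 3 each), giving a log2 fold change of -1.09 with SE 0.086 (adjusted p = 6.76e-06, edgeR). UCHL5, a deubiquitinase of the same particle, had 93.6 ± 2.44 CPM in GlnIND and 176 ± 28.8 CPM in parental cells (SD, n = 3 each), giving a log2 fold change of -0.91 with SE 0.11 (adjusted p = 7.01e-05, edgeR). POMP, the maturation factor of the core, was singled out after its values were seen. It fell by 0.43 on the log2 scale, with SE 0.11 (adjusted p = 0.00911, edgeR), and its value was 0.01 after removing the neighbours' shift and 0.00026 after removing the GC trend. The neighbours of TXNL1 had a median of -0.82, and with their shift removed it stood at -0.27 (adjusted p = 0.0236).

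Among 7 tested shuttle receptors, which carry ubiquitinated proteins to the proteasome, 1 rose and 3 fell (57.1% called, beside 56.3% of all genes tested). RAD23B had 194 ± 8.71 CPM in GlnIND and 378 ± 16.2 CPM in parental cells (SD, n = 3 each), giving a log2 fold change of -0.96 with SE 0.065 (adjusted p = 2.4e-06, edgeR). Its neighbours had a median of -0.50, and with their shift removed it stood at -0.46 (adjusted p = 0.000305). Of 10 genes for the segregase VCP and its cofactors, VCP alone was called (10%, beside 56.3% of all genes tested). It had 427 ± 21.9 CPM in GlnIND and 583 ± 55.5 CPM in parental cells (SD, n = 3 each), giving a log2 fold change of -0.45 with SE 0.08 (adjusted p = 0.00102, edgeR). Of 4 ubiquitin genes UBB alone was called (25%, beside 56.3% of all genes tested). It rose to 940 ± 47.2 CPM in GlnIND against 650 ± 74.3 CPM in parental cells (SD, n = 3 each). The log2 fold change was 0.53 with SE 0.087 (adjusted p = 0.000592, edgeR).

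In the list around NFE2L1 2 of 6 genes rose and 3 fell (83.3% called, beside 56.3% of all genes tested). NFE2L1 itself had 356 ± 4.59 CPM in GlnIND and 404 ± 16.8 CPM in parental cells (SD, n = 3 each) and fell by 0.18 on the log2 scale, with SE 0.059 (adjusted p = 0.0238, edgeR). This call was lost with library totals alone (-0.03, adjusted p = 0.656) and without any GlnIND library or parental 2 (adjusted p up to 0.0769). Its window had a median of 0.38, and with that shift removed NFE2L1 stood at -0.57 (adjusted p = 5.72e-05). DDI2, the protease that cleaves and activates NFE2L1, fell by 0.74 (SE 0.074, edgeR adjusted p = 2.99e-05). NGLY1, which removes its sugar chains, rose by 0.48 (SE 0.077, edgeR adjusted p = 0.000534) where neighbours had a median of 0.42, and removing their shift left 0.06. SYVN1, a ubiquitin ligase of NFE2L1, rose by 0.80 (SE 0.075, edgeR adjusted p = 1.92e-05) in a window at 0.72, and stood at 0.08 with that shift removed. FBXW7, another such ligase, fell by 0.70 (SE 0.11, edgeR adjusted p = 0.000481). Over the 38 tested genes of the 5 lists 4 rose and 13 fell (44.7% called, beside 56.3% of all genes tested).

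Counting sets a limit on some members. RefSeq genes that overlap a member and held at least 20% of its parental CPM were PSMA3-AS1 for PSMA3, LOC100129034 for PSMB7, NRDE2 for PSMC1, PMPCB for PSMC2, FTSJ3 for PSMC5, SPIRE1 and CEP76 for PSMG2, and ATG4A for PSMD10. Since the strand setting of the counting is not given in the sources used here, reads of such pairs may not be told apart. PSMA3-AS1 had 54.9 ± 4.19 CPM in GlnIND and 44.2 ± 10.9 CPM in parental cells (SD, n = 3 each, edgeR adjusted p = 0.104), beside a lower PSMA3.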

How the data were processed

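PolyA RNA of 3 GlnIND and 3 parental libraries was sequenced. The authors deposited 1 table of raw counts for each library, by gene symbol, and replicate numbers follow these tables. FastQC, STAR, featureCounts, DESeq and the build hg19 are named by the submitters' processing notes. Versions, annotation, strand and multi-mapper settings are not given in the sources used here. A matrix of all libraries was not used. Members and lists were chosen with earlier results of these data known.

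A two-sided quasi-likelihood test by group (glmQLFTest of edgeR 4.0.16, R 4.3.3) was applied to the counts, with TMM factors and filterByExpr (minimum count 10, total 15), with Benjamini-Hochberg adjustment over 13949 genes and a threshold of 0.05. The procedure was tested on simulated data. SE came from the F statistic. CPM uses TMM-scaled library sizes, which were 18256219 to 24594248 counts before scaling. The common biological coefficient of variation was 9.8%. A permutation test of 3 against 3 libraries cannot go below 0.1.

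Alternatives were RLE and upper-quartile factors, library totals alone, no filter, each library left out, DESeq2 1.42.0, a block for replicate number and removal of the shift of 20 neighbours on each side. Removal of a GC trend (loess, span 0.3) was added after seeing the data. Gene order, promoters and names came from RefSeq GRCh38.p14, lengths and GC from GENCODE release 29. Full values go to catalytic and tissue-specific subunits, activators, the inhibitor, chaperones and, in each of the 4 subunit groups, up to 3 called members per direction with the largest change. From partner lists up to 2 called genes are named, and all in lists under 7 genes may be.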

Additional observations from a re-analysis of the deposited data

How the results depend on the processing

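The counts of members called moved with the scaling and with single libraries. With library totals alone 16 members rose and 6 fell (core 6 and 1, regulatory 7 and 3, assembly 2 and 1, 1 activator lower, 11 partner genes higher). With upper-quartile factors assembly had 2 higher and 1 lower, and 7 partner genes rose. With the neighbours' shift removed 2 members rose (core 0, regulatory 0, activators and inhibitor 0, assembly 2, partner genes 2). With the GC trend removed, an alternative chosen after seeing the data, 2 regulatory and 7 partner genes rose. Over the 6 fits that leave out 1 library, members called ranged from 1 to 10 higher and from 10 to 25 lower. By part the ranges of members were 0 to 4 and 2 to 9 for the core, 1 to 5 higher for the regulatory particle and 0 to 1 higher for activators and inhibitor. They were 0 to 1 and 1 to 4 for assembly, and 4 to 7 higher for partner genes. The cause was not tested.

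With the replicate block 4 members rose and 13 fell (core 1 higher, regulatory 2 higher, assembly 0 higher). Libraries with the same number did not deviate together, with correlations of -0.086, 0.025 and -0.097 for numbers 1, 2 and 3. Not every library correlated best with the one of its own number. The deviations are centred on 3 libraries a group, so they cannot tell whether libraries with the same number were handled together.

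Some log2 fold changes took the other sign. With library totals alone these were PSMA1 (0.0018), PSMA2 (0.030), PSMA5 (0.032), PSMB2 (0.017), PSMD11 (0.0068), PSMD14 (0.045), PSME3 (0.109), PSME4 (0.0051) and PSMD9 (0.128), and with upper-quartile factors PSME3 (0.047) and PSMD9 (0.067). With the neighbours' shift removed these were PSMA1 (0.163), PSMA2 (0.098), PSMA4 (-0.041), PSMB7 (0.027), PSMC1 (-0.121), PSMC2 (0.147), PSMC4 (-0.132), PSMC5 (-0.059), PSMD3 (-0.036), PSMD6 (-0.167), PSMD7 (-0.063), PSMD14 (0.129), PSMG3 (0.202) and POMP (0.0062). With the GC trend removed these were PSMA2 (0.059), PSMA5 (0.166), PSMC6 (0.12) and POMP (0.00026). PSMD6, at 0.0027, was -0.0135 with RLE factors, -0.00066 with no filter and -0.0136 with DESeq2. Leaving out 1 library gave -0.291 to 0.024 for PSMA2, -0.024 to 0.083 for PSMA4, -0.051 to 0.045 for PSMD6 and -0.088 to 0.0068 for PSMD9.

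At 3 libraries a group 9 members with no overlap between groups missed the threshold (above in GlnIND PSMB5, PSMD3 and PSMG4, below PSMA1, PSMB2, PSMD11, PSMD14, PSME4 and PSMG3). Of the tested members 68.2% had ranges apart and 50% were called, against 65% and 56.3% of all genes tested. Overlap with other genes and the unstated strand setting limit single members.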
